A study of Mus musculus with 10 samples.

Results

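The cluster of miR-183, miR-96 and miR-182 gives 3 mature microRNAs of the 5p arm, miR-182-5p, miR-183-5p and miR-96-5p. They were chosen by name, as the rows of the microRNA class called mmu-miR-182-5p, mmu-miR-183-5p and mmu-miR-96-5p, with no threshold on their values. These are 3 of the 6968 small RNA features of the count table, of which 2015 belong to the microRNA class and 1302 are mature microRNAs. The 3 members were measured in all 10 libraries, and all 3 passed the filter on low counts in every fit that used one.

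The libraries came from CD43- splenic B-cells of mice on the 129 background. Mice were wt, 3'RR-deficient (without the 3' regulatory region downstream of the immunoglobulin heavy chain genes, the IgH locus) or Eμ-deficient (lacking the intronic IgH enhancer, and called EμMAR-deficient in the study's methods). The study's culture methods give an age of 8 to 12 weeks and both sexes, without naming the small RNA libraries. Per the labels, cells were cultured for 2 days, either alone (NS, non-stimulated) or with 5 μg/ml of lipopolysaccharide (LPS), a bacterial component that drives B-cells into division and class switching. Cells of 2 mice were pooled for each library. There were 2 libraries per condition for wt and for 3'RR-deficient cells and 1 per condition for Eμ-deficient cells. The deletions lie in DNA that small RNA reads do not measure, so the genotypes could not be checked here. The study's methods speak of cells taken before and after stimulation, so that a comparison of LPS with NS may also hold the effect of culture. The RNA-seq methods of the study, which do not name the small RNA libraries, describe 2 RNA pools per genotype. Whether the pools behind these libraries came from separate cultures is not stated there or in the labels, and p-values measure the spread between these libraries.

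A microRNA is cut from a hairpin in a longer primary transcript, and one arm of the hairpin is usually kept in an Argonaute protein, which it guides to messenger RNAs that pair with its seed, the bases near its 5' end. The hairpins of this cluster lie side by side on one strand and are generally held to be made from one primary transcript. The cluster is best known from sensory organs such as the hair cells of the inner ear and the photoreceptors of the retina, and changes in the seed of miR-96 cause progressive hearing loss in mice and humans. In lymphocytes, miR-182 is known to be induced on activation, and in T cells it is known to act on Foxo1, a transcription factor of resting cells.

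The mature sequences are shown first, since the seeds define which messenger RNAs each member can recognise and set the members apart from one another. They are taken from RefSeq (build GRCm38.p6), which held all 3, and are written 5′ to 3′ with the seed, bases 2 to 8, in capitals.
miR-182-5p: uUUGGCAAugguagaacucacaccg
miR-96-5p: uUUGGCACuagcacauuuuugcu
miR-183-5p: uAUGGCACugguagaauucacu
The seeds differ by few bases. Counted from 1 at the 5′ end, with the base of the first-named microRNA before the position and that of the second after it, the seeds of miR-182-5p and miR-96-5p differ by A8C alone, and those of miR-183-5p and miR-96-5p by A2U alone. Between miR-182-5p and miR-183-5p there are both U2A and A8C. Over the whole length the order of likeness is another. miR-182-5p and miR-183-5p are identical at 18 of 22 positions, against 12 of 23 for miR-182-5p with miR-96-5p and 13 of 22 for miR-183-5p with miR-96-5p. Among 1679 mature mouse microRNAs with a RefSeq sequence, miR-1271-5p is the only other one with the seed of miR-96-5p, and none shares bases 2 to 8 with miR-182-5p or miR-183-5p. miR-1271-5p was not analysed here.

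The hairpins are shown because both arms of each were counted. Both mature arms are in capitals, with the 5p arm first.
Mir182, chr6:30165918-30165992, minus strand: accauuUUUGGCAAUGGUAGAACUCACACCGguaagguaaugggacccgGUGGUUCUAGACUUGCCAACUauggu
Mir96, chr6:30169446-30169551, minus strand: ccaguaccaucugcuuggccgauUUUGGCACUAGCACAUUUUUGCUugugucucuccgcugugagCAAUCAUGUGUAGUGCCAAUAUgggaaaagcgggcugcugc
Mir183, chr6:30169668-30169737, minus strand: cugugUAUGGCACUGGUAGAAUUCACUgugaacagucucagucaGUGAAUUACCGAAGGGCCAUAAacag
Positions are those of build GRCm38, and the positions deposited for the mature arms are the same. The cluster spans 3820 bases. Mir183 and Mir96 are 116 bases apart, while Mir182 lies a further 3453 bases downstream in the direction of transcription. In GENCODE M21 (GRCm38) no other gene overlaps the hairpins, which are therefore intergenic. The nearest annotated genes are the long non-coding RNA Rncr4, 3156 bases away on the plus strand, and on the other side the protein-coding gene Nrf1, 12460 bases away on the plus strand.

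Library depth ranged from 3482540 to 18144016 counts, of which the microRNA class took between 51.4% and 82.1%. The 2 shallowest libraries were the second NS libraries of wt and 3'RR-deficient cells. Across 720 tested features, the difference between the second and the first library correlated with r = 0.66 between those NS groups, while the r was 0.11 between the LPS groups. Features are not independent replicates and this r has no p. Both second NS libraries thus stand apart together, and the main comparisons of the members that use them are also given without them, an alternative added after the data were seen. The microRNAs listed as haematopoietic and lymphoid markers (the miR-142a arms, miR-150-5p, miR-155-5p and miR-181a-5p) were present in every library, with summed levels of 89738 to 255683 CPM in NS and 87969.5 to 154287 CPM in LPS libraries. With LPS 1 of these 5 rose (miR-155-5p) and 2 fell (miR-150-5p and miR-181a-5p) in the joint fit described below, where 13.2% of 720 tested features rose and 8.61% fell. The miR-142a arms are known from blood cells in general, so that the sum does not tell lymphocytes from other blood cells. CPM are counts of the microRNA class per library total, with the totals adjusted by TMM factors over the 10 libraries.

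The first question was how abundant each member was in each library. miR-182-5p, the member known from activated lymphocytes, stood at 77.2 and 22.6 CPM in wt NS libraries 1 and 2, at 111 and 23.4 CPM in 3'RR-deficient NS libraries 1 and 2, and at 80.7 CPM in the Eμ-deficient NS library. With LPS it stood at 302 and 593 CPM in wt, 352 and 812 CPM in 3'RR-deficient and 239.8 CPM in Eμ-deficient cells. Every LPS library was thus above every NS library, and the lowest NS libraries were the second ones of both genotypes. In counts, miR-182-5p rested on 68 to 841 reads in NS and on 1448 to 5992 reads in LPS libraries, and it ranked between 146 and 223 among the mature microRNAs in NS and between 79 and 115 in LPS libraries.

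miR-183-5p, the member at the 5′ end of the cluster, was measured at 30.3 and 62.3 CPM in wt NS libraries, 54.8 and 61.3 CPM in 3'RR-deficient NS libraries and 20.7 CPM in the Eμ-deficient NS library. Its LPS values were 99.2 and 347 CPM in wt, 189.5 and 452 CPM in 3'RR-deficient and 124 CPM in Eμ-deficient cells. Again the LPS and NS libraries did not overlap. Unlike miR-182-5p, it was not low in the second NS libraries, where it had 187 counts in wt and 207 in 3'RR-deficient cells.

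miR-96-5p, the member whose seed is changed in inherited hearing loss, was the scarcest. It had 2.13 and 1.33 CPM in wt NS libraries (19 and 4 counts), 4.23 and 0.296 CPM in 3'RR-deficient NS libraries (32 counts and 1 count) and 3.11 CPM in the Eμ-deficient NS library (30 counts). With LPS the levels were 13.3 and 17.3 CPM in wt, 10.6 and 34.0 CPM in 3'RR-deficient and 8.92 CPM in Eμ-deficient cells, from 48 to 251 counts. The LPS libraries were all higher than the NS libraries here too, with the widest spread among NS libraries, whose highest and lowest values differed by 14.3 times.

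**Figure D1:**
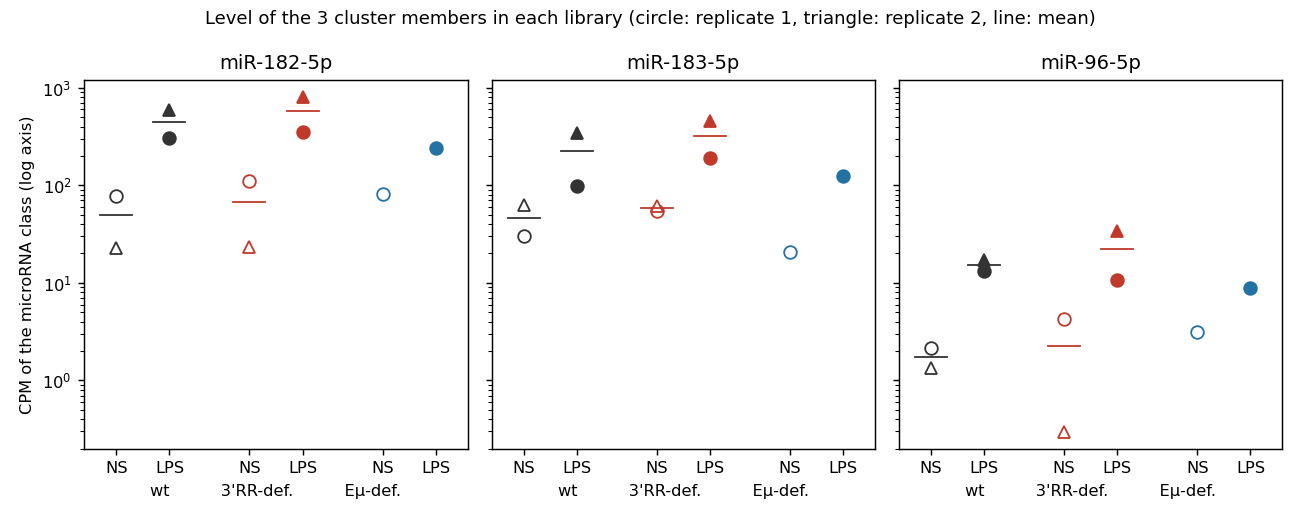
Level of each member (vertical log axis, CPM of the microRNA class) in each library, by genotype and condition on the horizontal axis, with circles for first and triangles for second libraries, open symbols for NS and filled ones for LPS, and lines at the means of 2 libraries. Each filled symbol lies above all open ones of its panel, and the second NS libraries (open triangles) are low for miR-182-5p at 22.6 and 23.4 CPM and not low for miR-183-5p at 62.3 and 61.3 CPM.

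The order of the levels was miR-182-5p, miR-183-5p, miR-96-5p in 8 of 10 libraries. In both second NS libraries miR-183-5p stood above miR-182-5p. The levels of these members overlapped over the libraries, from 22.6 to 111 CPM against 20.7 to 62.3 CPM in NS and from 239.8 to 812 CPM against 99.2 to 452 CPM in LPS, so that their ranges over libraries do not separate them. Within each of the 5 LPS libraries, however, miR-182-5p was the higher one, by 0.77 to 1.61 on the log2 scale, whereas in NS libraries the same difference lay between -1.46 and 1.96. miR-96-5p stayed below both in every library, by 2.74 to 7.69 on the log2 scale against miR-183-5p. A read covers a whole mature microRNA of 22 to 25 bases, so these levels need no correction for length, but the efficiency with which the kit captured each sequence was not measured.

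The next comparison asked how the cluster changed with LPS. All 3 members rose in the fit of wt and 3'RR-deficient libraries together (edgeR's quasi-likelihood test, additive terms for genotype and stimulation), where 21.8% of the 720 tested features passed the threshold of an adjusted p under 0.05, 13.2% upwards and 8.61% downwards. That count of 157 depended on the libraries and was lower without wt LPS library 2 (71), wt LPS library 1 (75), 3'RR-deficient LPS library 2 (84) or 3'RR-deficient LPS library 1 (98). miR-182-5p was 8.58-fold higher with LPS, a log2 fold change of 3.10 ± 0.61 (SE, 4 libraries against 4, edgeR adjusted p = 0.00718). miR-96-5p changed to a like extent, 8.62-fold or 3.11 ± 0.71 in log2 (SE, edgeR adjusted p = 0.0125). For miR-183-5p the fold was 4.88, or 2.29 ± 0.51 in log2 (SE, edgeR adjusted p = 0.0111). The median log2 fold change over all tested features was 0.07. Among the 720 features 8.47% had a larger fold change than miR-182-5p, 14.7% than miR-183-5p and 8.19% than miR-96-5p, which places the members in the upper part of the response without being at its top. LPS libraries did not overlap with NS libraries for any member, which held for 18.9% of the 720 features in the upward direction.

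**Figure D2:**
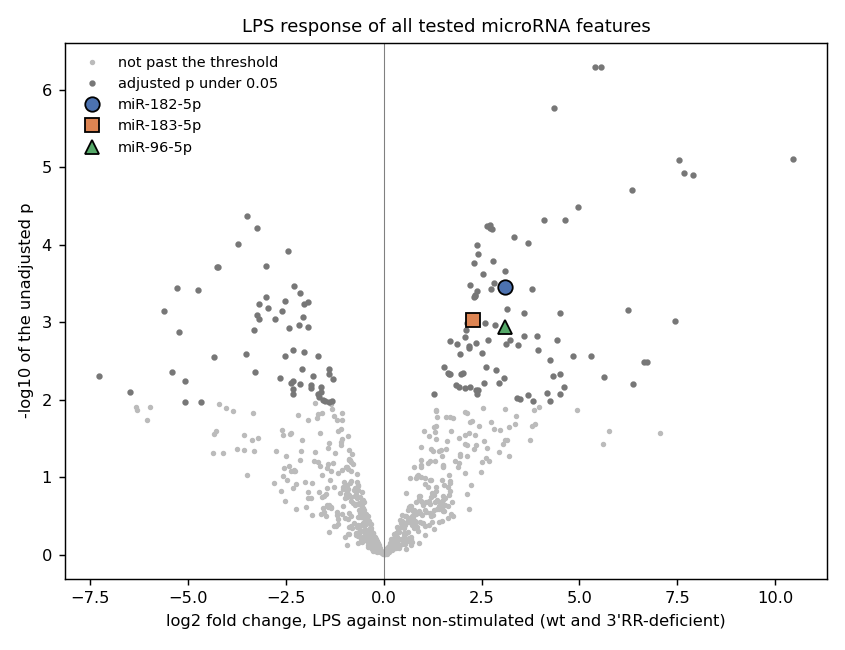
LPS response of the 720 tested microRNA features in wt and 3'RR-deficient cells, with the log2 fold change on the horizontal and -log10 of the unadjusted edgeR p on the vertical axis, dark points past the threshold and large symbols for the members. The members lie among the features that rose, at log2 fold changes of 3.10, 2.29 and 3.11.

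With the Eμ-deficient libraries included, the rise of all 3 members was again past the threshold, which 18.8% of 988 features passed, 11.8% upwards and 6.98% downwards. The log2 fold changes were 2.83 ± 0.56 for miR-182-5p, 2.41 ± 0.46 for miR-183-5p and 2.83 ± 0.68 for miR-96-5p (SE, edgeR adjusted p = 0.00311, 0.00244 and 0.0102, 5 libraries against 5). Over these 10 libraries 11.2% of features had every LPS library above every NS library, as the members did. They were, without both second NS libraries, 2.19, 2.65 and 2.27 (edgeR adjusted p = 0.00047, 0.00037 and 0.0055), where 260 of 955 features were called. Both fits share 8 libraries and are not independent of each other.

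Within a single genotype, 2 libraries against 2, the same differences did not pass with edgeR under the filter and TMM scaling used throughout and no replicate block. Other settings gained calls. With a replicate block within culture condition all 3 members passed in both genotypes, as did 25.3% of 720 features in wt and 25.4% in 3'RR-deficient cells. The p-values of that block leave out the spread between first and second libraries. In wt the log2 fold changes were 3.22 ± 0.93, 2.22 ± 0.79 and 3.15 ± 1.11 for miR-182-5p, miR-183-5p and miR-96-5p (SE, edgeR adjusted p = 0.0982, 0.151 and 0.149), in a comparison where 0.694% of features were called. In 3'RR-deficient cells they were 2.98 ± 0.92, 2.35 ± 0.79 and 3.07 ± 1.09 (SE, edgeR adjusted p = 0.145, 0.155 and 0.170), where 0.972% were called. Single libraries moved these values and calls, and with them the calls over all features. Leaving out 1 library left 1 in its group. Without 3'RR-deficient NS library 1 the log2 fold change of miR-182-5p was 3.10 in wt and 4.32 in 3'RR-deficient cells. That of miR-96-5p in 3'RR-deficient cells was then 5.82, resting on 1 count in the remaining NS library. Without wt NS library 1 miR-182-5p stood at 3.95 in wt and 2.99 in 3'RR-deficient cells. Without 3'RR-deficient NS library 2 it stood at 3.17 in wt. Without wt LPS library 2 the log2 fold change of miR-183-5p in wt was 0.97. Without both second NS libraries miR-182-5p and miR-183-5p passed in wt (2.60 and 2.93, edgeR adjusted p = 0.0236 and 0.0359), beside 79 of 824 features. The DESeq2 Wald test called miR-182-5p and miR-96-5p in wt, among 98 of 720 features, and all 3 members in 3'RR-deficient cells, among 90. The ratio of the single Eμ-deficient LPS library to its NS library was 1.57 for miR-182-5p, 2.57 for miR-183-5p and 1.43 for miR-96-5p on the log2 scale with a prior count of 2, without a test.

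The calls in wt and 3'RR-deficient cells together rested in part on the second LPS libraries, which had the higher level of each pair. The call of miR-183-5p was lost without wt LPS library 2 (log2 fold change 1.78, edgeR adjusted p = 0.0869) and without 3'RR-deficient LPS library 2 (1.90, 0.0574), and that of miR-96-5p without the latter (2.71, 0.0528). Without both second NS libraries the log2 fold changes were 2.34, 2.58 and 2.48 for miR-182-5p, miR-183-5p and miR-96-5p, all past the threshold, as were 217 of 824 features. With a trend on GC content removed from each library the log2 fold change of miR-183-5p was 1.29 (edgeR adjusted p = 0.114). In a fit of all 3987 features of whatever class that passed the filter, those of miR-182-5p and miR-96-5p were 2.20 and 2.23 (edgeR adjusted p = 0.0920 and 0.0797).

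**Figure D3:**
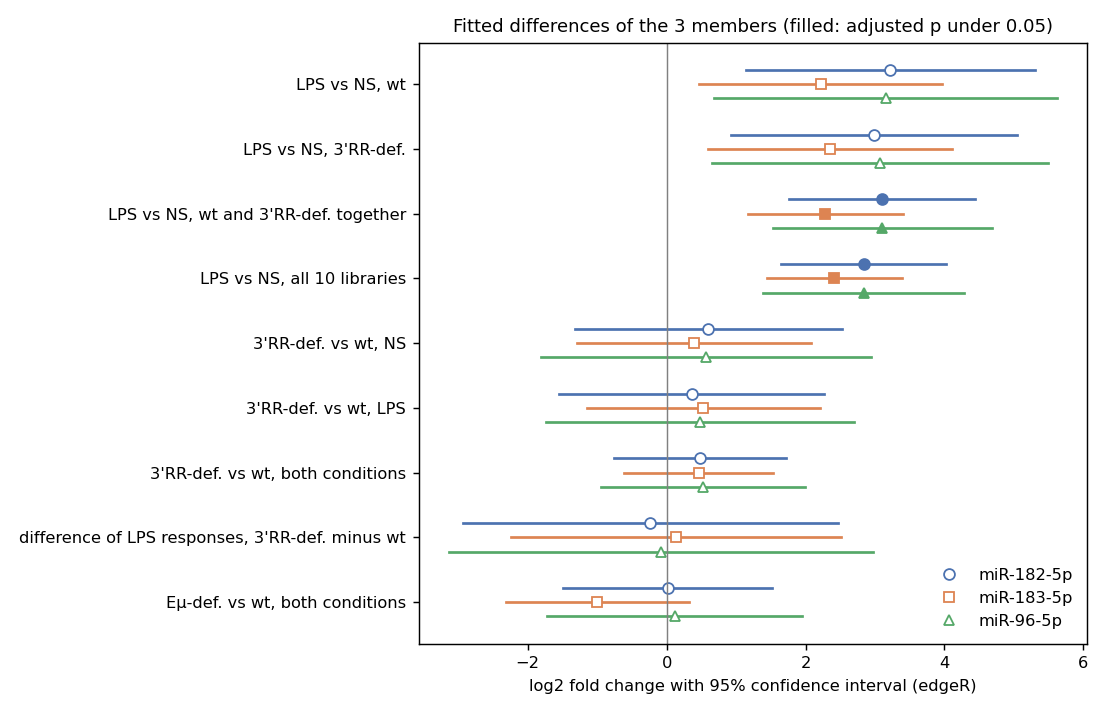
Fitted log2 difference of each member in each comparison (horizontal axis) with its 95% confidence interval, filled where the adjusted p was under 0.05. The filled symbols are the LPS responses of the 8 libraries of wt and 3'RR-deficient cells and of all 10 libraries, and the intervals of every comparison between genotypes include 0.

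Since the members are held to share a transcript, their levels were also summed. The sum was 109.7 and 86.2 CPM in wt NS libraries, 170.1 and 85.0 CPM in 3'RR-deficient NS libraries and 104.5 CPM in the Eμ-deficient NS library. With LPS it was 414 and 957 CPM in wt, 552 and 1298 CPM in 3'RR-deficient and 373 CPM in Eμ-deficient cells. LPS and NS libraries did not overlap, and the mean difference was 2.43 on the log2 scale of CPM with a pseudocount of 2 (exact permutation test within genotype, two-sided, p = 0.0278, the smallest this design allows). Leaving out single libraries gave differences of 2.22 to 2.73. Without either Eμ-deficient library the difference was 2.73, and without both second NS libraries it was 2.21 (exact permutation p = 0.0556 in each case, the smallest then possible). In bulk RNA, a change in the number of cells of a type and a change in the RNA of each cell cannot be told apart.

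The composition of the sum does not depend on library scaling, and it shows whether the members kept their proportions. In LPS libraries miR-182-5p made up 61.9% to 72.8% of the counts of the 3 members, miR-183-5p 23.9% to 36.3% and miR-96-5p 1.81% to 3.22%. The NS libraries were less alike. In the first ones and in Eμ-deficient cells miR-182-5p held 70.4% (wt, Wilson 95% confidence interval 67.5% to 73.2%), 65.3% (3'RR-deficient, 62.7% to 67.8%) and 77.2% (Eμ-deficient, 74.5% to 79.7%). In the second ones its share was 26.3% (wt, 21.3% to 31.9%) and 27.5% (3'RR-deficient, 22.7% to 33.0%), while miR-183-5p held 72.2% and 72.1%. In both genotypes the intervals of the first and second NS libraries did not overlap. These intervals cover counting error alone, with amplified copies counted as separate reads, and not the spread between pools. The labels name no difference between those libraries beside the number.

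Between NS and LPS libraries no member's share moved beyond the spread between libraries. On the logit scale the differences were 0.43 for miR-182-5p, -0.43 for miR-183-5p and 0.48 for miR-96-5p (exact permutation test within genotype, two-sided, p = 0.5, 0.528 and 0.472, each 0.528 after adjustment over the 3 shares). All 3 changed sign when both second NS libraries were left out, to -0.41, 0.44 and -0.051.

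**Figure D4:**
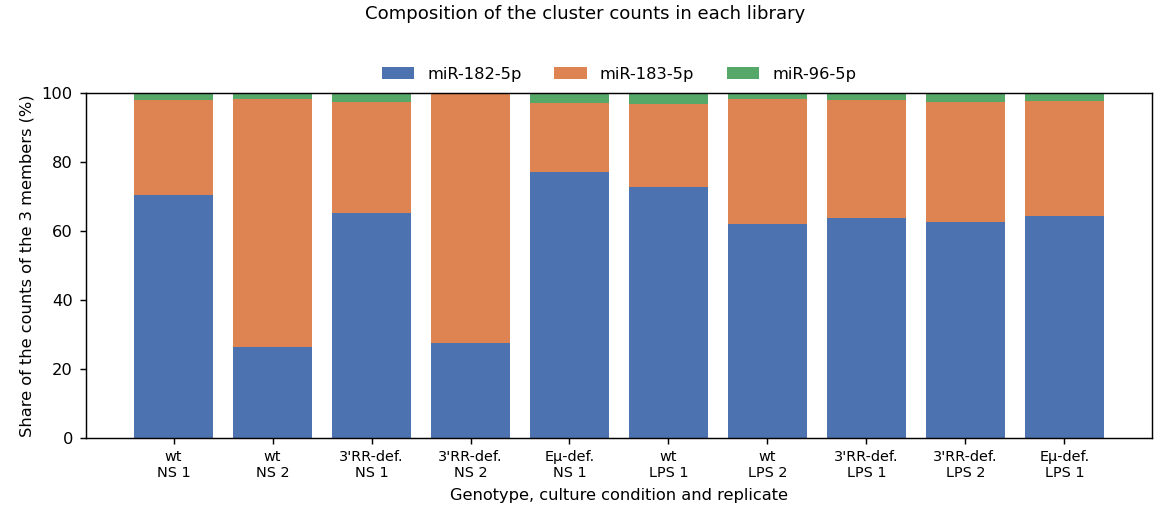
Share of each member in the summed counts of the 3 members (vertical axis, percent) in each library. The second NS libraries of wt and 3'RR-deficient cells, with 26.3% and 27.5% of miR-182-5p, stand apart from the other 8 libraries, where it held 61.9% to 77.2%.

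The study deleted IgH enhancers, and the following comparisons asked whether the cluster differed between genotypes. In NS cells, 3'RR-deficient minus wt differences were 0.60 ± 0.86 for miR-182-5p, 0.39 ± 0.76 for miR-183-5p and 0.57 ± 1.07 for miR-96-5p in log2 (SE, 2 libraries against 2, edgeR adjusted p = 1 for each). In the NS comparison 0.0% of 720 features were called by edgeR and 1 by the DESeq2 Wald test, with 9 at an unadjusted p under 0.05. Since the NS libraries differed by number, ratios within each number were also taken. They were 0.52, 0.85 and 0.90 in log2 between the first libraries and 0.05, -0.02 and -1.46 between the second, where miR-96-5p rested on 1 count and 4 counts. With both second NS libraries left out the fitted differences were 0.90, 1.23 and 1.35 (edgeR adjusted p = 1 for each). They were -0.84 for miR-182-5p and -2.31 for miR-96-5p without 3'RR-deficient NS library 1, and -0.26 for miR-183-5p without wt NS library 1.

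In LPS-stimulated cells the corresponding differences were 0.36 ± 0.86, 0.53 ± 0.75 and 0.49 ± 1.00 (SE, edgeR adjusted p = 1 for each). Their direction rested on single libraries, since those of miR-182-5p and miR-96-5p were -0.13 and -0.33 without 3'RR-deficient LPS library 2 and that of miR-183-5p was -0.045 without wt LPS library 1, within a range that reached 1.59. Here too edgeR called 0.0% of features, DESeq2 called 2, and 15 had an unadjusted p under 0.05. Both conditions together gave 0.48 ± 0.56, 0.46 ± 0.49 and 0.53 ± 0.67 (SE, edgeR adjusted p = 0.997 for each), in a fit that called 0.139% of features. The 95% confidence intervals reached from -0.76 to 1.72 for miR-182-5p, from -0.61 to 1.54 for miR-183-5p and from -0.95 to 2.00 for miR-96-5p. A difference of more than 3.30-fold upwards for miR-182-5p, 2.90-fold for miR-183-5p or 3.99-fold for miR-96-5p thus lay outside these unadjusted intervals. The differences over both conditions were 0.56, 0.77 and 0.78 without both second NS libraries (edgeR adjusted p = 0.876, 0.842 and 0.876). Those of miR-182-5p and miR-96-5p turned to -0.073 and -0.14 without 3'RR-deficient NS library 1. Scaling by the total microRNA count moved the median of all features from 0.00097 to -0.12 and the members to 0.33, 0.32 and 0.28.

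The difference between the LPS responses of 3'RR-deficient and wt cells was tested directly. It was -0.24 ± 1.21 for miR-182-5p, 0.14 ± 1.07 for miR-183-5p and -0.08 ± 1.37 for miR-96-5p (SE, edgeR adjusted p = 1.00 for each). The sign of each depended on the processing and on single libraries, with values from -1.02 to 1.22, from -0.54 to 1.29 and from -0.95 to 2.81 as libraries were left out, and of -0.50, -0.67 and -0.81 without both second NS libraries. The intervals were wide, from -2.94 to 2.46, from -2.24 to 2.51 and from -3.13 to 2.97. In this comparison 0.0% of features were called by either tool and 5 had an unadjusted p under 0.05.

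Eμ-deficient cells were compared with wt over both conditions, with 1 Eμ-deficient library in each and with the same wt libraries as above. miR-183-5p had its lowest level of all libraries in the Eμ-deficient NS one, and its fitted difference was -0.998 ± 0.620 in log2 (SE, edgeR adjusted p = 0.566, 95% confidence interval -2.32 to 0.32). The difference was 0.02 ± 0.71 for miR-182-5p and 0.11 ± 0.86 for miR-96-5p (SE, edgeR adjusted p = 0.996 and 0.966), where 1.62% of 988 features were called, 1.42% as higher. That count of 16 features was 1 without the Eμ-deficient LPS library, 2 without either wt LPS library and 33 without wt NS library 1. It was 28 of 988 with total count scaling, 71 of 955 without both second NS libraries, 55 with the DESeq2 Wald test and 105 with the replicate block within culture condition. Leaving out single libraries moved the difference of miR-183-5p between -1.29 and -0.40, and without both second NS libraries it was -0.39. Over the 12 alternatives it lay between -1.31 and -0.18. The median of all features was -0.17, and it moved to 0.20 with total count scaling, under which the members stood at -0.71, 0.44 and 0.45 in the order named. Within one condition the Eμ-deficient library was set against each wt library, in log2 and without a test. In NS cells the ratio to wt libraries 1 and 2 was 0.06 and 1.82 for miR-182-5p, -0.54 and -1.57 for miR-183-5p and 0.49 and 1.06 for miR-96-5p. In LPS-stimulated cells it was -0.33 and -1.30, 0.32 and -1.48, and -0.56 and -0.93, so that the sign for miR-183-5p depended on the wt library.

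The other arms of the hairpins were counted as well. Reads of the 3p arms were few in NS libraries, where miR-182-3p had 3 counts in wt library 1, 2 in 3'RR-deficient library 1 and 0 in the other 3. In LPS libraries it had 8 and 39 counts in wt, 2 and 30 in 3'RR-deficient and 18 in Eμ-deficient cells. miR-183-3p had 8 counts in wt NS library 1, 1 in 3'RR-deficient NS library 1 and 0 in the other 3 NS libraries, against 13 to 49 in LPS libraries. The 3p arms passed the filter on low counts through their LPS libraries, so that a test of LPS against NS says little about them, and neither a test nor a fold is given.

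The 5p arm carried most reads of each hairpin. Summed over the 5 LPS libraries, the 3p arm took 0.614% of the reads of both arms of Mir182 (Wilson 95% confidence interval 0.503% to 0.748%, 97 counts) and 1.31% for Mir183 (1.09% to 1.57%, 111 counts). Mir96 had the highest 3p share, 13.7% (11.3% to 16.5%, 92 counts), and it was uneven between libraries. wt LPS library 2 had 47 counts of miR-96-3p beside 115 of miR-96-5p, a share of 29.0%, while wt LPS library 1 had 0 beside 64, where a count of 0 allows up to 4.69% of the 5p count. Over the 5 NS libraries the 3p shares were 0.203%, 0.699% and 2.27% from 5, 9 and 2 counts. With no molecular identifiers stated, amplified reads may be copies of each other, so that these intervals and limits cover counting error alone.

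Mature microRNAs of other hairpins within 2 Mb on chromosome 6 were examined as neighbours. These were both arms of miR-29a and of miR-29b-1, miR-335-5p, miR-335-3p, miR-129-5p and miR-129-1-3p, of which the last was not tested for want of counts. The names miR-29b-3p and miR-129-5p carry no hairpin number, so that their counts may hold reads of hairpins elsewhere. None of the 7 tested passed the threshold for LPS in the joint fit, which 21.8% of 720 features passed. Their log2 fold changes ran from -0.73 to 1.71 and their edgeR adjusted p from 0.256 to 0.883. The most abundant, miR-29a-3p, known to restrain interferon-gamma in T cells, had 5378 to 21145 CPM in NS and 7129.5 to 11099 CPM in LPS libraries, which overlapped.

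For each member the mature microRNAs of at least 100 CPM with the most similar profile over the 10 libraries were then named, by the mean absolute difference of log2 CPM after centring, without a test. The nearest to miR-182-5p of the 154 candidates were miR-20b-5p (0.264), miR-106a-5p (0.345), miR-17-5p (0.368), miR-21a-5p (0.414) and miR-7b-5p (0.441), against a median of 1.56. For miR-96-5p they were miR-20b-5p (0.398), miR-17-5p (0.472), miR-21a-5p (0.510), miR-20a-5p (0.513) and miR-7b-5p (0.519). Members of the miR-17 family, known as products of proliferation-linked clusters on other chromosomes, thus headed both lists. These profiles share the dip of both second NS libraries.

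miR-183-5p had another set of nearest profiles, namely miR-92a-1-5p (0.381), miR-298-5p (0.505), miR-34a-5p (0.613), miR-130b-5p (0.649) and miR-5099 (0.713), and none of them is among those of the other members. The first of these is nonetheless encoded close to microRNAs on the other lists. miR-92a-1-5p starts at chr14:115044437, beside miR-17-5p at 115043684 and miR-20a-5p at 115044183. Within the cluster, miR-182-5p and miR-96-5p differed by a mean of 0.308, whereas miR-183-5p was 0.827 from miR-182-5p and 0.828 from miR-96-5p. Without both second NS libraries these distances were 0.206, 0.345 and 0.418, so that much of the gap lay in those libraries. All libraries enter every profile, and these distances are descriptions of 10 libraries.

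**Figure D5:**
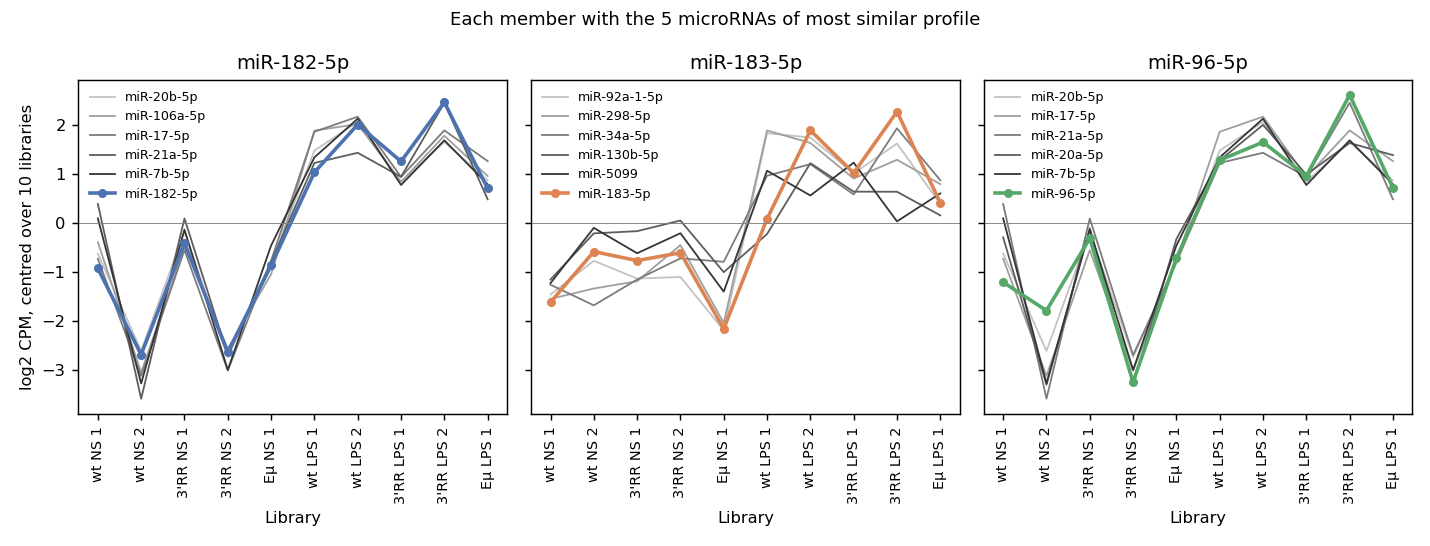
Profile of each member over the 10 libraries (coloured, centred log2 CPM on the vertical axis) with the 5 mature microRNAs of most similar profile (grey). miR-182-5p and miR-96-5p drop in the second NS libraries with their neighbours. miR-183-5p and its neighbours have no such drop in both genotypes, although miR-34a-5p falls in wt, from -1.25 in NS library 1 to -1.67 in NS library 2.

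Among 12 microRNAs listed for lymphocyte activation, 4 rose and 2 fell with LPS in the joint fit, where 13.2% of all tested features rose and 8.61% fell, and their median log2 fold change was 1.18 beside 0.07 over all tested features. The list was chosen with earlier results of these data known. miR-155-5p, which is induced by B-cell activation and acts on the class-switching enzyme AID, rose by 2.76 ± 0.44 in log2 (SE, edgeR adjusted p = 0.00261). Of the 4 most abundant microRNAs of the list, the other 3 did not pass. miR-21a-5p, which is often high in dividing cells, had a log2 fold change of 2.22 ± 0.81, miR-146a-5p, a known brake on the signalling downstream of LPS, one of 1.32 ± 0.54, and miR-26a-5p one of -0.88 ± 0.60 (SE, edgeR adjusted p = 0.0723, 0.102 and 0.326).

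Markers of other cells in the spleen moved with the LPS comparison, in the joint fit that called 8.61% of all tested features as lower. Of the myeloid markers, 2 of 2 (both miR-223 arms) fell, with summed levels of 479 to 5031 CPM in NS and 82.4 to 512 CPM in LPS libraries. Of 3 erythroid markers (miR-451a, miR-144-3p, miR-486a-5p), 1 fell, miR-486a-5p, with sums of 2499.9 to 7919 CPM in NS and 138 to 3567 CPM in LPS libraries. Of 4 stromal and endothelial markers (miR-143-3p, miR-145a-5p, miR-126a-3p, miR-199a-3p), 3 fell, all but miR-126a-3p, with sums of 209 to 1079 CPM in NS and 69.0 to 949 CPM in LPS libraries. Only miR-145a-5p among these had libraries at 0, 2 of them. The sums take in the Eμ-deficient libraries, which the joint fit left out, and NS and LPS sums overlapped for each of these lists. Over all 10 libraries miR-199a-3p reached 108 CPM with LPS against 70.8 CPM in NS, so the falls do not hold in every library. The part of such cells in the change of the cluster was not tested. Of 4 neural and sensory markers, miR-124-3p was at 0 counts in all 10 libraries. miR-204-5p and miR-211-5p did not exceed 7.98 CPM and had libraries at 0. They were lower with LPS without passing, at -3.57 ± 1.42 and -2.38 ± 1.25 in log2 (SE, edgeR adjusted p = 0.0932 and 0.195). Over all 10 libraries miR-204-5p passed as lower (-3.46 ± 1.16, edgeR adjusted p = 0.0485), where 6.98% of 988 features did. In the other direction, miR-9-5p rose by 3.69 ± 0.62 in log2 in the joint fit (SE, edgeR adjusted p = 0.00346). It went from 5.33 to 31.3 CPM in NS to 129 to 320.1 CPM in LPS libraries.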

How the data were processed

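Small RNA of 10 libraries was measured as read counts per feature. The deposited table holds the authors' whole-number counts, without normalization. The submitters' processing notes name cutadapt 1.2.1, Bowtie2 and mm10. The counting program, the use of strand and the treatment of reads with more than 1 match were not given in the sources used here, so that reads shared by similar microRNAs could be split in ways not known. The NextFlex small RNA kit was used without mention of molecular identifiers.

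Rows of the microRNA class were fitted in R 4.3.3 with edgeR 4.0.16 (TMM scaling, filterByExpr by group, two-sided quasi-likelihood F-test, Benjamini-Hochberg adjustment over all features tested, threshold 0.05). Comparisons within a condition or genotype used a mean per group over the 8 wt and 3'RR-deficient libraries, and genotype and stimulation entered additively where both conditions were joined. The cluster sum and shares were tested by exact permutation within genotype. A prior count of 2 was added for ratios between single libraries. The scripts were tested on simulated data before use.

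Named were the members, the 3p arms of their hairpins, microRNAs sharing bases 2 to 8 or 2 to 7, mature neighbours within 2 Mb, the 5 nearest profiles of at least 100 CPM, and up to 4 microRNAs per list by mean CPM. The members and lists were chosen with earlier results of these data known. Alternatives were DESeq2 size factors, total microRNA scaling, no filter, 10 CPM in 2 libraries, the DESeq2 1.42.0 Wald test, the replicate block alone and within culture condition, a loess trend on GC content (span 0.75) removed per library, all features, mature microRNAs alone and leaving out each library.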

Additional observations from a re-analysis of the deposited data

Results flagged for a closer look

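With 12 sets of libraries tested for a library far from the others, of which chance flags about 1 in 20, 2 were flagged, and both concern wt LPS library 1. There miR-182-5p made up 72.8% of the counts of the 3 members, the highest share among the 5 LPS libraries, and miR-183-5p made up 23.9%, the lowest. The other 4 LPS libraries lay between 61.9% and 64.3% for miR-182-5p and between 33.3% and 36.3% for miR-183-5p. The shares sum to 100% with that of miR-96-5p, so these are not separate findings.

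Outside the microRNA class, 1 row of the table spans the 3 hairpins. It is a piRNA cluster of the annotation the authors counted on, chr6:30161929-30170356 on the minus strand. It had 54 and 16 counts in wt NS, 30 and 11 in 3'RR-deficient NS and 25 in Eμ-deficient NS libraries. With LPS it had 77 and 157 counts in wt, 86 and 249 in 3'RR-deficient and 305 in Eμ-deficient cells. As CPM of all counts the NS libraries lay between 1.85 and 4.59 and the LPS libraries between 12.7 and 18.0, without overlap. The share of all features without such overlap was not computed. In the fit of all features the row rose by 1.60 ± 0.38 in log2 in wt and 3'RR-deficient cells together (SE, edgeR adjusted p = 0.0478). There 4.51% of 3987 features were called. In all 10 libraries it rose by 1.78 ± 0.35 (SE, edgeR adjusted p = 0.0108), where 8.21% of 4554 features were called. Whether its reads come from the hairpins or from the sequence between them was not tested.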

How the results depend on the processing

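The rise of the 3 members with LPS was positive under all 12 alternatives and with each library left out, in both joint fits and within each of the genotypes with replicates (wt and 3'RR-deficient). miR-96-5p, at no more than 4.23 CPM in NS libraries, passed the filter of 10 CPM in 2 libraries through LPS libraries alone. That alternative therefore says little about its rise. Its side of the threshold was less stable. With wt and 3'RR-deficient cells together, the fit of all features gave 2.20 (edgeR adjusted p = 0.0920) for miR-182-5p and 2.23 (0.0797) for miR-96-5p, and in all 10 libraries 1.93 (0.0809) and 1.92 (0.0784). Removal of the GC trend, run on 497 mature microRNAs with a RefSeq sequence beside 607 mature ones tested without it, gave 1.29 (0.114) for miR-183-5p. Within a genotype some alternatives brought the rise past the threshold. For miR-182-5p in wt and 3'RR-deficient cells these were no filter (3.12 and 2.97), the DESeq2 Wald test (3.12 and 3.10), the GC trend removed (3.16 and 3.16) and, in wt, leaving out both second NS libraries (2.60). Over all features no filter called 50 and 31 of 1799 and the removal of the GC trend 48 and 27 of 497. For miR-183-5p they were the DESeq2 test in 3'RR-deficient cells (2.36) and, in wt, leaving out both second NS libraries (2.93), and for miR-96-5p the DESeq2 test (3.05 and 3.22).

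Replicate numbers deviated together between the NS groups (r = 0.66), hardly between the LPS groups (0.11) and not between NS and LPS groups (-0.06 to -0.29), so they do not pair the libraries. The replicate block left the rise in the joint fit at 3.33, 2.19 and 3.22 for miR-182-5p, miR-183-5p and miR-96-5p. The block within culture condition, averaged over both numbers, gave 3.38 and 3.31 for miR-182-5p, 2.12 and 2.26 for miR-183-5p and 3.39 and 3.44 for miR-96-5p in wt and 3'RR-deficient cells, all past the threshold, as were 25.3% and 25.4% of all 720 features. With the GC trend removed as well the values were 3.19 and 3.31, 1.497 and 1.63, and 2.71 and 2.65, again past it, beside 146 and 135 of 497 features. This block takes the difference between first and second libraries out of the error, so that its p-values do not cover that spread, and it called 336 features in the joint fit.

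Differences that were far from the threshold changed sign. The difference of LPS responses of miR-96-5p was 0.18 with DESeq2 size factors, 0.10 with 10 CPM in 2 libraries, 0.17 with the DESeq2 test, 0.17 with mature microRNAs alone, 0.24 with the GC trend removed, 0.059 with the replicate block and 0.044 with it within condition. For miR-182-5p it was 0.00085 with the GC trend removed and 0.12 with that and the block. For miR-183-5p it was -0.079 with all features and -0.67 without both second NS libraries. Eμ-deficient minus wt became -0.074, -0.16, -0.0054 and -0.099 for miR-182-5p with the block, the block within condition, that with the GC trend removed, and without both second NS libraries. For miR-96-5p it became -0.12 with the block within condition, -0.086 with the GC trend removed and -0.031 with both. Without both second NS libraries, chosen after seeing the data, the share differences were -0.41, 0.44 and -0.051, and the cluster sum 2.21 (exact permutation p = 0.0556, the smallest then possible).

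With each library left out, the rise in wt ranged from 2.58 to 3.95, 0.97 to 2.91 and 2.89 to 3.25 for miR-182-5p, miR-183-5p and miR-96-5p, and in 3'RR-deficient cells from 2.15 to 4.32, 1.72 to 2.77 and 2.14 to 5.82. In the joint fit miR-183-5p ranged from 1.78 to 2.58 and miR-96-5p from 2.68 to 3.74. 3'RR-deficient minus wt ranged from -0.84 to 1.42, -0.26 to 1.09 and -2.31 to 1.49 in NS cells for miR-182-5p, miR-183-5p and miR-96-5p, from -0.13 to 0.85, -0.045 to 1.59 and -0.33 to 1.08 in LPS-stimulated cells, and over both from -0.073 to 0.82, 0.17 to 0.79 and -0.14 to 0.90. The difference of responses ranged from -1.02 to 1.22, -0.54 to 1.29 and -0.95 to 2.81, and Eμ-deficient minus wt from -0.88 to 0.92, -1.29 to -0.40 and -0.81 to 1.05. The cluster sum ranged from 2.22 to 2.73, the latter without either Eμ-deficient library, and the shares of miR-182-5p and miR-183-5p from -0.027 to 1.10 and -1.15 to 0.031. A lone library left in a group is assumed to vary like the other groups.

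Counts of calls over all features moved too, from 5 in wt to 98 and from 7 in 3'RR-deficient cells to 90 with the DESeq2 test, from 157 to 247 in both together, and from 16 to 55 in Eμ-deficient cells. Leaving out single libraries gave 0 to 71 edgeR calls in wt (0 without wt NS library 2 or wt LPS library 1), 0 to 62 in 3'RR-deficient cells (0 without 3'RR-deficient NS library 2 or wt LPS library 1), 71 to 163 in both together, 107 to 194 in all 10 libraries and 1 to 33 in Eμ-deficient against wt. The cause of these shifts was not tested. miR-96-5p rested on 1 to 32 counts in NS libraries.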
